A study of Mus musculus with 4 samples.

Results

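Neurogenic and neuronal genes were followed in cultured mouse astrocytes, to describe how far transcripts known from neurons occur in these cultures and how they vary between libraries. The 38 genes were chosen by name for their known roles: transcription factors of neurogenesis, proteins of the neuronal cytoskeleton, neuronal RNA-binding proteins, parts of the synapse, and a last group of the enzymes of GABA synthesis with Uchl1. Of these, 36 were found by exact name among the 25393 genes of the deposited table, and Neurog1 and Neurod2 were not among its rows. RNA-seq was run on primary astrocytes from cortex and hippocampus of untreated C57BL/6 mice at postnatal day 1, with 2 wild type (WT) libraries and 2 libraries labelled as Tet1 knockout (KO, genotype tet1-/-). The knockout is constitutive, so every cell of those mice should carry it. Tet1 encodes an enzyme that oxidizes 5-methylcytosine in DNA. Each isolation pooled 2 mice, and the cells were cultured for about 7 days, shaken at 260 rpm to detach other cells, and kept for 24 h more. The study describes its RNA-seq repeats as biological, and reports more of them per genotype than the 2 libraries per label used here. Nothing in the labels says which cultures the 2 libraries of a label came from. The p-values thus measure the spread between these libraries, which may be partly technical.

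Newborn neurons are made from progenitors in which proneural factors of the Neurog and Neurod families switch on a neuronal programme, followed by Sox4 and Sox11, by cytoskeletal proteins such as Tubb3 and Dcx, and by RNA-binding proteins of the Elavl and Rbfox families. Mature neurons add the synaptic machinery, in which Snap25, Stx1a and Vamp2 form the SNARE complex that fuses vesicles with the membrane and synaptotagmins sense calcium. Outside neurons many of these genes are held down by the repressor Rest. Astrocytes share a progenitor origin with neurons and have their own secretory and adhesion machinery, so several genes on the list are not exclusive to neurons.

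The labels were checked on Tet1 first. Tet1 measured 266 and 121 normalized counts in the WT libraries against 173 and 463 in the libraries labelled KO, where a normalized count is the number of reads on a gene divided by a size factor of the library. The KO libraries were thus not lower in Tet1 than the WT libraries, and the group names below are labels only. Counts over the whole gene do not show whether the deleted part was read. Xist, expressed from the inactive X chromosome of female cells, measured 8.54 and 0.920 normalized counts in WT against 2896 and 13367 in the libraries labelled KO. The summed counts of 4 Y-linked genes were 3765 and 1909 in WT, 0 in KO replicate 1 and 830 in KO replicate 2. These transcripts, which mark sex, differed between the labels, and sex and genotype cannot be told apart here.

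The libraries held 18749610 and 22673555 reads on genes in WT against 20702980 and 22403163 in the libraries labelled KO. A floor of 3 reads corresponded to between 2.70 and 3.21 normalized counts, and intervals and floors cover counting error only. The intervals pool the reads of a label, for members with few reads under 1 label and more under the other. Libraries of the same label differed by more than counting error, with a median chi-square per gene of 8.04 within WT and 27.1 within KO. The intervals leave this spread out, so they do not test a difference between the labels. Astrocyte markers were abundant, with summed levels of 2061 and 1960 FPKM in WT, 3104 in KO replicate 1 and 493 in KO replicate 2, of which Gfap, the intermediate filament of astrocytes, was the most abundant. FPKM here are reads per 1000 bases of gene length and per 1000000 reads on genes. All 12 astrocyte markers passed the floor in every library, yet KO replicate 2 held the lowest sum. KO replicate 2 stood apart from the other libraries in this respect. KO replicate 1 held the most genes at 0 reads, with 4563 against 2661 and 2843 in WT and 2597 in KO replicate 2. For most of the followed genes whose 2 KO values lay far apart, the log2 fold change is also given without a KO library.

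At this depth, 27 of the 38 named genes, or 27 of the 36 with a row, reached 3 reads in all 4 libraries, as did 63.4% of all listed genes. Neurog2, Dcx, Elavl4 and Cplx1 reached it in 2 libraries, and Neurod1, Rbfox3, Snap25, Syt4 and Gad2 in only 1. The median level over the 36 listed genes was 1.84 FPKM, against 1.13 FPKM over all listed genes. A mean of at least 1 FPKM was reached by 22 of the 36 genes and by 51.2% of all listed genes. A mean of at least 10 FPKM was reached by 6 of the 36, namely Uchl1, Vamp2, Sox4, Gap43, Ncam1 and Stmn2, and by 20.3% of all listed genes. In bulk RNA a low level can come from few cells or from little RNA per cell, and these cannot be told apart.

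Summed over the 36 genes, the level was 318 and 394 FPKM in WT against 320 and 409 FPKM in the libraries labelled KO, so the 2 labels overlapped. Uchl1 alone made up between 45.8% and 55.5% of that sum. Without Uchl1 the sums were 164 and 203 FPKM in WT against 174 and 182 FPKM in KO. The 36 genes took between 0.123% and 0.147% of all reads on genes. Relative to the summed astrocyte markers, the neuronal sum was 15.4% and 20.1% in WT, 10.3% in KO replicate 1 and 82.9% in KO replicate 2, where the astrocyte sum was the lowest of the 4.

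**Figure D1:**
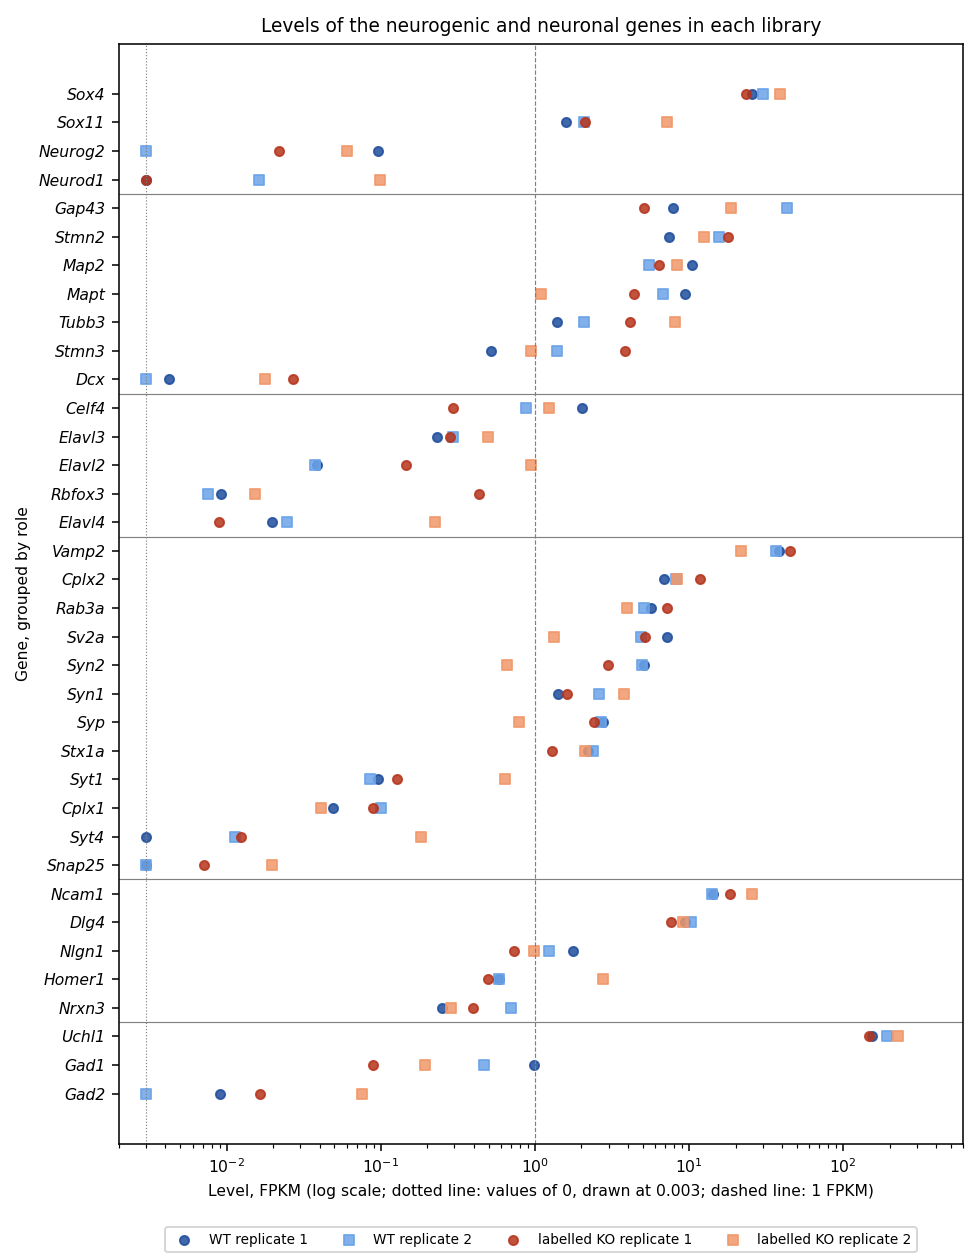
Level of each of the 36 listed genes in the 4 libraries, in FPKM on a log axis, grouped by role (horizontal lines) and ordered by mean level within a role. Each point is 1 library, and values of 0 are drawn at the dotted line. The plot runs from Uchl1, at 147 to 227 FPKM, down to Snap25 and Dcx, which were at 0 in at least 1 library.

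Over all genes, 22094 had a mean of at least 1 normalized count and were tested with limma on log2(normalized count + 1), Snap25 being the one listed gene of the group that fell below. At an unadjusted p under 0.05, 3 of the 35 tested genes were higher in the libraries labelled KO (Tubb3, Dcx and Elavl2), where 4.54% of all tested genes were, and 1 was lower (Gad1), where 9.18% were. Dcx passed the filter only through the libraries in which it was high, so its count says little, and it is absent at a mean of at least 5, where 3 members were left at that threshold. After Benjamini-Hochberg adjustment over all genes, limma called 0 of the 35, as it called 0% of the 22094. Applied to the recovered reads, edgeR also called 0 genes after adjustment, with 2377 of 16292 genes (14.6%) and 3 of 27 members (Tubb3, Elavl2 and Gad1) at an unadjusted p under 0.05. DESeq2 gave an adjusted p to 29 members and called Tubb3 and Elavl2 higher and Gad1 lower, against 1.69% of genes called higher and 4.8% called lower. The 4 members at an unadjusted limma p under 0.05 became 1 without WT replicate 1 and 0 without WT replicate 2, where 4.73% and 6.2% of all tested genes passed. They became 14 without KO replicate 1, where 22% of all tested genes passed, and 3 without KO replicate 2, where 13.8% did.

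The log2 fold change was above 0 in 21 of the 35 members and below 0 in 14, while it was above 0 in 46.3% of all tested genes. The median log2 fold change was 0.27 for the members and -0.07 for all tested genes. Without KO replicate 2 the members' median was -0.06, and with a mean of at least 5 normalized counts it was 0.14. Neurod1, Dcx, Rbfox3, Syt4 and Gad2, all above 0, averaged under 1 normalized count in WT. They passed the filter only through the libraries labelled KO, so their sign says little. The values of the 2 labels did not overlap for 17 genes: 10 were higher in both libraries labelled KO, where 22.5% of all tested genes were, and 7 were lower in both, where 25.4% were. The higher ones were Sox11, Tubb3, Dcx, Rbfox3, Elavl2, Elavl3, Syt1, Syt4, Ncam1 and Gad2, and the lower ones Mapt, Syn2, Syp, Stx1a, Nlgn1, Dlg4 and Gad1. As Dcx, Rbfox3, Syt4 and Gad2 passed the filter only through the libraries labelled KO, the count of higher genes says little about them. For 1 gene, with 2 libraries on each side, the smallest two-sided p that exact permutation allows is 0.33.

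**Figure D2:**
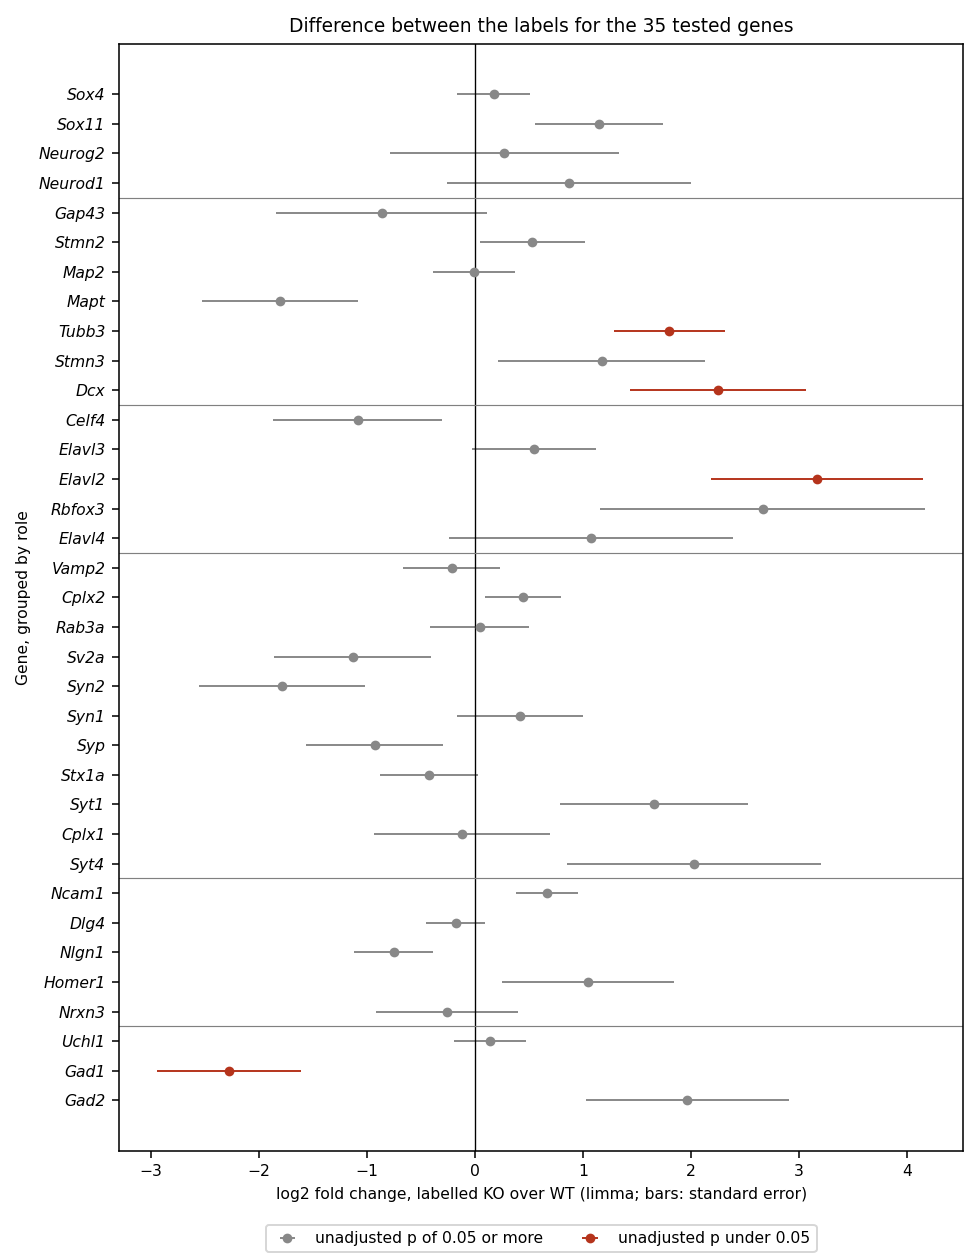
log2 fold change of the 35 tested genes, libraries labelled KO over WT, from limma, with bars for the standard error. Red points mark the 4 genes with an unadjusted p under 0.05: Tubb3, Dcx and Elavl2 lie right of 0 and Gad1 lies left.

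Among the neurogenic transcription factors, the factors that start the programme were at or near the floor, while Sox4 and Sox11, which act after it and are also found in progenitors, were expressed. Neurog2, a proneural factor of the cortex, measured between 0 and 4.27 normalized counts. Neurod1, which promotes neuronal differentiation, measured between 0 and 5.41, with its highest value in KO replicate 2. Its log2 fold change of 0.87 was 2.21 without KO replicate 1. Sox4 measured 2453 and 3001 normalized counts in WT against 2474 and 3786 in the libraries labelled KO, a level of 23.3 to 39.1 FPKM. The ranges overlapped, and the log2 fold change was 0.17 (SE 0.34, limma). Sox11 measured 266 and 360 normalized counts in WT against 391 and 1204 in KO. Its KO values lay above both WT values, but KO replicate 2 was 3.08-fold higher than KO replicate 1, and the log2 fold change of 1.15 (SE 0.59) did not pass the limma test (adjusted p = 0.457) or DESeq2 (adjusted p = 0.275). It was 0.34 without KO replicate 2 and 1.96 without KO replicate 1.

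Tubb3, which marks young neurons, was low in WT and higher in both libraries labelled KO. Dcx, another such marker, had few reads and passed the filter only through the libraries labelled KO. The log2 fold changes of the other cytoskeletal genes had both signs. Tubb3 (ENSMUSG00000062380) encodes the neuronal β-tubulin recognised by the Tuj1 antibody and lies on chromosome 8 (mm10, 123411424 to 123422015, plus strand), where it overlaps the gene model Gm20388 on the same strand. It measured 52.3 and 80.9 normalized counts in WT against 170 and 307 in the libraries labelled KO, or 1.40 and 2.08 against 4.11 and 8.15 FPKM. Both KO values were above both WT values, and the means differed 3.59-fold. The log2 fold change was 1.80 (SE 0.52, limma, adjusted p = 0.268), and DESeq2 gave 1.84 with an adjusted p of 0.0421. Without WT replicate 1, WT replicate 2 or KO replicate 2 the unadjusted limma p rose to 0.126, 0.0701 and 0.0589, and without KO replicate 1 it was 0.0193.

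Dcx (ENSMUSG00000031285, X chromosome, 143855842 to 143933311, minus strand) encodes doublecortin, which stabilises microtubules in migrating neuroblasts, and overlaps no other annotated gene. It measured 1.07 and 0 normalized counts in WT against 7.49 and 4.51 in KO. These are 1 read in WT and 12 reads in the libraries labelled KO, at a level below 0.03 FPKM throughout. The ratio was 11.9 with a 95% counting interval from 1.76 to 508. As only the libraries labelled KO brought Dcx through the filter, its fitted values say little. The log2 fold change of 2.25 (SE 0.81, limma, adjusted p = 0.343) kept an unadjusted p under 0.05 without WT replicate 1 (0.0457) but not without WT replicate 2 (0.110), KO replicate 1 (0.0968) or KO replicate 2 (0.0558). DESeq2 gave an unadjusted p of 0.154 and no adjusted p, limma with a pseudocount of 0.1 gave an unadjusted p of 0.062, and the unadjusted p was under 0.05 in 5 of the 11 other settings that gave a value.

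Mapt and Map2, microtubule-binding proteins of the axon and of the dendrite, were both well above the floor. Mapt measured 1415 and 1059 normalized counts in WT against 732 and 167 in the libraries labelled KO. Both KO values were lower than both WT values, with KO replicate 1 4.39-fold above KO replicate 2, and the log2 fold change was -1.80 (SE 0.72, limma, adjusted p = 0.365). Without KO replicate 2 it was -0.74, and without KO replicate 1 it was -2.87. Map2 measured 3440 and 1892 in WT against 2315 and 2779 in KO, with a log2 fold change of -0.01 (SE 0.38). Its values crossed between the labels, and its level of 5.52 to 10.5 FPKM placed it above 75.4% of all listed genes.

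Stmn2 and Stmn3, stathmins that regulate microtubule growth, and Gap43, a growth cone protein, varied within labels by more than between them. Stmn2 measured 824 and 1829 normalized counts in WT against 2224 and 1416 in KO. Stmn3 measured 11.7 and 33.1 in WT against 96.3 and 21.6 in KO. Gap43 measured 240 and 1365 in WT against 172 and 574 in the libraries labelled KO. All 3 overlapped between the labels, and limma gave them log2 fold changes of 0.53, 1.17 and -0.86. Without KO replicate 2 these were 0.86, 2.22 and -1.73, and without KO replicate 1 they were 0.21, 0.12 and 0.0034.

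The neuronal RNA-binding proteins had the smallest summed level of the 6 groups, at 2.33 and 1.24 FPKM in WT against 1.16 and 2.91 FPKM in KO, and Elavl2 differed between the labels at an unadjusted p under 0.05. Elavl2 (ENSMUSG00000008489, chromosome 4, 91250763 to 91400785, minus strand) encodes HuB, which stabilises neuronal mRNAs. It measured 6.40 and 6.44 normalized counts in WT against 26.8 and 159 in the libraries labelled KO. The WT libraries were nearly equal, both KO libraries lay above them, and KO replicate 2 was 5.93-fold above KO replicate 1, at a level of only 0.945 FPKM. The log2 fold change was 3.17 (SE 0.98, limma, adjusted p = 0.289), and DESeq2 gave 3.85 with an adjusted p of 0.00591. The unadjusted limma p was 0.134 without WT replicate 1, 0.158 without WT replicate 2, 0.0547 without KO replicate 2 and 0.00457 without KO replicate 1, and the log2 fold change was 1.90 without KO replicate 2 and 4.43 without KO replicate 1.

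Its relatives had smaller fitted log2 fold changes. Elavl3 (HuC) measured 32.0 and 42.3 normalized counts in WT against 42.8 and 68.5 in KO, which did not overlap but lay close together (log2 fold change 0.55, SE 0.57, 0.21 without KO replicate 2 and 0.88 without KO replicate 1). Elavl4 (HuD) measured 2.13, 2.76 and 1.07 in WT replicates 1 and 2 and KO replicate 1, and 24.3 in KO replicate 2. The first 3 values lay at or under the floor of 3 reads, and KO replicate 2 was well above it. Without that library, its log2 fold change of 1.08 was -0.73, and without KO replicate 1 it was 2.88.

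Rbfox3, which encodes NeuN, the nuclear marker of mature neurons, was above the floor in KO replicate 1 alone. It measured 1.07 and 0.920 normalized counts in WT, 55.7 in KO replicate 1 and 1.80 in KO replicate 2. This is 2 reads in WT against 54 in the libraries labelled KO, a ratio of 26.7 with a 95% counting interval from 7.06 to 227, nearly all of it from 1 library (log2 fold change 2.66, SE 1.50, limma, adjusted p = 0.489). That log2 fold change was 0.49 without KO replicate 1 and 4.83 without KO replicate 2. Celf4, which binds synaptic mRNAs, ran the other way within the KO label, with 349 and 156 in WT, 55.7 in KO replicate 1 and 215 in KO replicate 2. Its values overlapped between the labels, and the log2 fold change of -1.09 was -0.12 without KO replicate 1 and -2.05 without KO replicate 2.

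**Figure D3:**
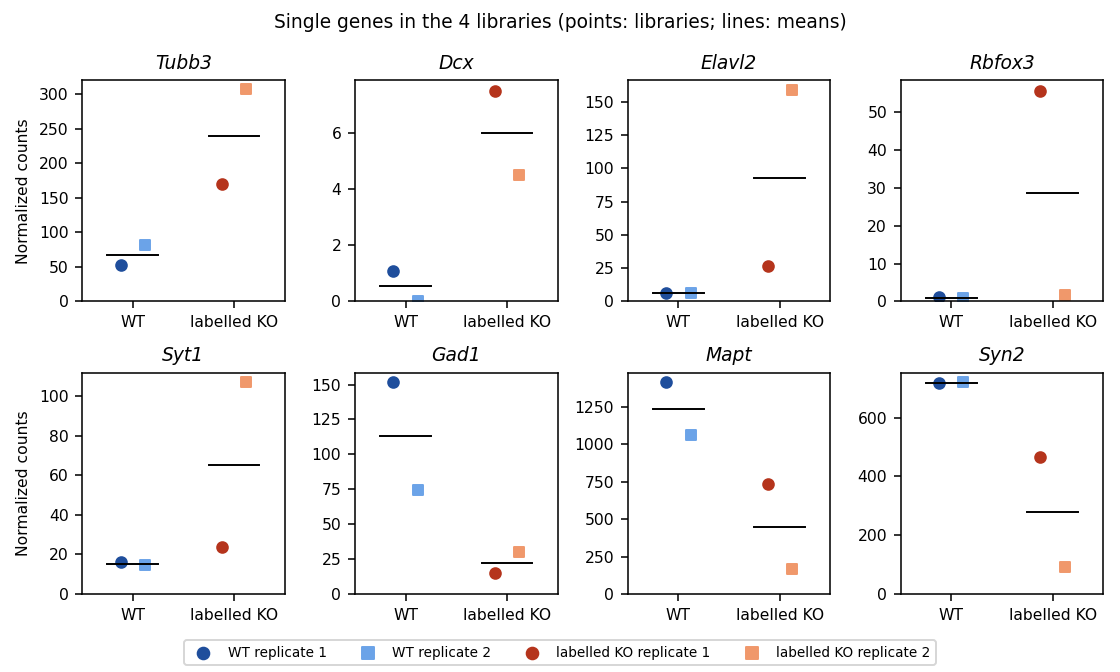
Normalized counts of 8 of the genes in each library, on a linear axis from 0, with a line at the mean of each label. Tubb3, Dcx and Elavl2 sit higher in both libraries labelled KO and Gad1, Mapt and Syn2 lower, while the high mean of Rbfox3 comes from KO replicate 1 and that of Syt1 from KO replicate 2.

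Promoter windows of RefSeq (build GRCm38.p6, from 250 bases before to 50 after a start) were found for 30 of the 38 genes. The windows are shown in short around 3 motifs, each found by letters alone: the TATAA box on the gene's strand, the E-box CAGCTG, which is the same on both strands and is a form bound by proneural factors, and the RE1 element bound by Rest. A match describes the letters only. The following 30-base stretches of the 3 genes at an unadjusted p under 0.05 that held a TATAA are written 5′ to 3′ on the gene's strand, with TATAA in capitals.
Tubb3 (chr8:123411511-123411540): ggggcagcctctTATAAgagggcgcggcgg
Dcx (chrX:143933300-143933329): tttcctgtgcgtTATAAacgaaacctttct
Gad1 (chr2:70561978-70562007): gtgagctggattTATAAtcgccctacaaag
The TATAA began 30 bases before the start in Tubb3, 98 bases before it in Dcx and 139 bases before it in Gad1. In GENCODE M21 the stretch lay in an exon for Tubb3, partly in an exon for Dcx (12 of 30 bases) and in an intron for Gad1, whose annotated gene begins farther upstream. TATAA occurred in 7 of the 30 members (23.3%) and in 20.03% of all genes with a window.

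CAGCTG was present in 12 of the 30 members (40.0%), against 18.3% of all genes with a window, and is shown for the 3 Elavl genes, with CAGCTG in capitals.
Elavl2 (chr4:91399966-91399995): caaggatcttagCAGCTGctagcagcagcc
Elavl3 (chr9:22052049-22052078): cgccggcgctggCAGCTGcctctataaagg
Elavl4 (chr4:110287556-110287585): agagtctggcttCAGCTGacagatggtccc
All 3 genes lie on the minus strand. The motif began 43 bases before the start in Elavl3 and 46 bases before it in Elavl4, and at base 2 after it in Elavl2, where the stretch is exonic. Elavl2 has 6 windows for its several starts, of which 3 held the motif, so a gene with more starts had more chances of a match. The other E-box, CAGATG on either strand, was in 5 of the 30 members (16.7%) against 19.2% of all genes.

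An exact RE1 was in 0 of the 30 members and 0.0777% of all genes. With 1 mismatch allowed, a search added after the data were seen, it was found in Map2, Syn1 and Gad2 (3 of 30 members and 1.15% of all genes), shown with the 17 matched bases in capitals.
Map2 (chr1:66175082-66175111): gcggggCTCTCTGGGGCTCCAAGgctggct
Syn1 (chrX:20921127-20921156): gtcggaTTCAGCACCGCGGTCAGagccttc
Gad2 (chr2:22622155-22622184): ggctgtGGTAGCACCCTGGACAGcgcgttc
The match of Map2 is on the strand opposite the gene. These 3 genes did not share a level: Map2 averaged 7.67 FPKM, Syn1 2.35 FPKM and Gad2 0.0254 FPKM. Rest itself measured 1160 and 1258 normalized counts in WT against 1039 and 1688 in the libraries labelled KO, which overlapped (log2 fold change 0.13).

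Of the 12 genes of the synaptic vesicle and its release, 9 passed the floor in every library, yet Snap25, a SNARE protein of the neuronal plasma membrane, was at 0 in both WT libraries, against 1.07 and 2.70 normalized counts in the libraries labelled KO. Its values were at or under the floor of 3 reads. Vamp2, the vesicle SNARE, measured 2922 and 2919 normalized counts in WT against 3788 and 1670 in KO, a level of 21.7 to 44.9 FPKM. Stx1a, the syntaxin of the same complex, measured 118 and 132 in WT against 76.0 and 114 in KO. Vamp2 overlapped between the labels, and both KO values of Stx1a were below both WT values (log2 fold change -0.43, SE 0.46, -0.14 without KO replicate 1 and -0.71 without KO replicate 2). The 3 partners thus differed widely in level, and no gene of the group passed limma or DESeq2.

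Syt1 and Syt4, synaptotagmins of the vesicle membrane, were low and highest in KO replicate 2. Syt1 (ENSMUSG00000035864) measured 16.0 and 14.7 normalized counts in WT, 23.5 in KO replicate 1 and 107 in KO replicate 2. Both KO values exceeded both WT values, but the log2 fold change of 1.66 (SE 0.87, limma, adjusted p = 0.465) was 0.59 without KO replicate 2 and 2.73 without KO replicate 1. Syt4 measured 0 and 0.920 in WT against 1.07 and 14.4 in KO, or 1 read against 17, a ratio of 16.8 with a 95% counting interval from 2.64 to 704. Of these 17 reads, 16 came from KO replicate 2 and 1 from KO replicate 1. The log2 fold change of Syt4 was 2.03, and 3.48 without KO replicate 1.

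The synapsins, which tether vesicles, differed from each other. Syn1 measured 92.8 and 179 normalized counts in WT against 118 and 252 in the libraries labelled KO, and the labels overlapped. Syn2 measured 718 and 721 in WT, 466 in KO replicate 1 and 92.8 in KO replicate 2. Both KO values of Syn2 were below both WT values, 5.02-fold apart from each other, with a log2 fold change of -1.78 (SE 0.77, limma, adjusted p = 0.393) that was -0.63 without KO replicate 2 and -2.94 without KO replicate 1. Both genes overlap other genes on the opposite strand, and whether reads were counted by strand is not given in the sources used here.

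The vesicle membrane proteins Syp and Sv2a were also lowest in KO replicate 2. Syp, synaptophysin, measured 287 and 292 normalized counts in WT against 277 and 82.9 in KO. Sv2a measured 666 and 474 in WT against 529 and 123 in KO. The Syp values of KO replicate 1 and WT were close, and the log2 fold change of -0.93 (SE 0.63) was -0.06 without KO replicate 2 and -1.79 without KO replicate 1. Sv2a overlapped between the labels, with -1.13, and -0.09 and -2.18 without the same libraries.

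Rab3a, the vesicle GTPase, measured 252 and 237 normalized counts in WT against 356 and 178 in the libraries labelled KO. Cplx2, a complexin that clamps the SNARE complex, measured 681 and 839 in WT against 1283 and 826 in KO. Both overlapped between the labels, with log2 fold changes of 0.05 (SE 0.46) and 0.45 (SE 0.35). That of Cplx2 was 0.13 without KO replicate 1 and 0.76 without KO replicate 2. Cplx1, a related complexin, stayed between 1.80 and 4.60 normalized counts, close to the floor, while Cplx2 stood at 6.90 to 11.8 FPKM.

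The synaptic adhesion and scaffold genes were all above the floor, and Ncam1 and Dlg4 were the most abundant. Ncam1, a cell adhesion molecule also made by glia, measured 2477 and 2554 normalized counts in WT against 3540 and 4507 in the libraries labelled KO. Both KO values were above both WT values, and the log2 fold change was 0.67 (SE 0.29, limma, adjusted p = 0.393), or 0.49 without KO replicate 2 and 0.84 without KO replicate 1. Dlg4, which encodes PSD-95 of the postsynaptic density, measured 2485 and 2833 in WT against 2255 and 2435 in KO. Its values did not overlap but differed little (log2 fold change -0.18, SE 0.27).

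Nlgn1, a postsynaptic adhesion protein that binds neurexins, measured 477 and 344 normalized counts in WT against 217 and 265 in KO. Both KO values were lower, and the log2 fold change was -0.75 (SE 0.37, limma, adjusted p = 0.439). Nrxn3, one of its presynaptic partners, measured 63.0 and 183 in WT against 111 and 72.1 in KO. Homer1, a scaffold of glutamate receptors, measured 141 and 145 in WT, 132 in KO replicate 1 and 665 in KO replicate 2. Nrxn3 and Homer1 overlapped between the labels, Homer1 with 3 libraries nearly level and 1 high, so that its log2 fold change of 1.05 was -0.12 without KO replicate 2 and 2.21 without KO replicate 1.

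In the last group, of the GABA-synthesising enzymes Gad1 was lower under the KO label and Gad2 reached the floor in KO replicate 2 alone. Uchl1 was high everywhere. Gad1 (ENSMUSG00000070880, chromosome 2, 70553072 to 70602014, plus strand) encodes GAD67 and overlaps the antisense gene Gad1os. It measured 152 and 74.5 normalized counts in WT against 15.0 and 29.7 in the libraries labelled KO, or 0.991 and 0.468 against 0.0885 and 0.193 FPKM. Both KO values were below both WT values, and the WT mean was 5.05-fold the KO mean. The log2 fold change was -2.27 (SE 0.66, limma, adjusted p = 0.273), and DESeq2 gave -2.33 with an adjusted p of 0.0348. The unadjusted limma p was 0.159 without WT replicate 1, 0.0671 without WT replicate 2, 0.0731 without KO replicate 1 and 0.0194 without KO replicate 2.

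Gad2, which encodes GAD65, measured 1.07 and 0 normalized counts in WT against 2.14 and 9.01 in KO, or 1 read against 12, and reached the floor in KO replicate 2 alone. Its log2 fold change of 1.96 was 1.13 without KO replicate 2 and 2.80 without KO replicate 1. Gad2 passed the filter only through the libraries labelled KO, so its sign says little. Uchl1, a ubiquitin hydrolase abundant in neurons, measured 5047 and 6512 normalized counts in WT against 5309 and 7484 in the libraries labelled KO. Its level of 147 to 227 FPKM was above 99.3% of all listed genes, the labels overlapped, and the log2 fold change was 0.14 (SE 0.33). It overlaps the antisense gene Uchl1os.

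Spread within a label was wider for KO than for WT, for the neuronal genes as for genes in general. Among the 23 members with a mean of at least 50 normalized counts, 10 differed by more than 2-fold between the KO libraries, where 28.6% of 12868 genes did, and 5 between the WT libraries, where 10.7% did. The median size of the log2 difference was 0.94 within KO and 0.42 within WT. Sox11, Gap43, Celf4, Syn1 and Homer1 were higher in KO replicate 2, and Mapt, Syn2, Syp, Vamp2 and Sv2a in KO replicate 1. KO replicate 2 held the highest value of 14 of the 35 tested members and each other library that of 7, while 30.8% of all tested genes were highest in KO replicate 2.

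**Figure D4:**
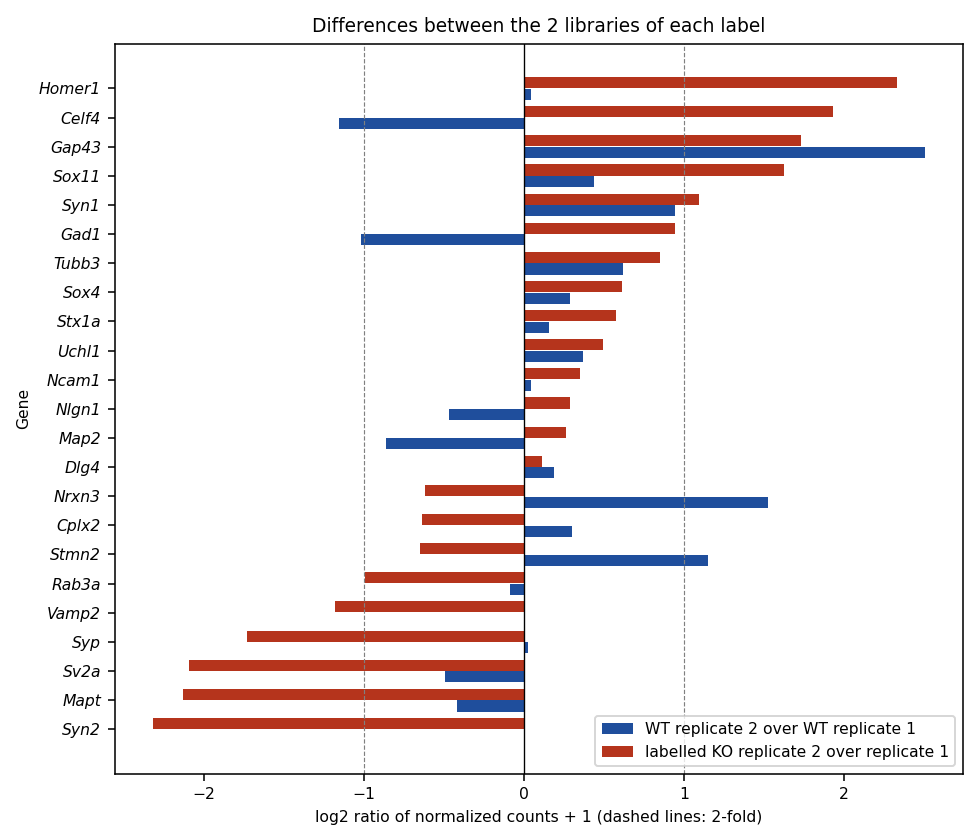
log2 ratio between the 2 libraries of each label (replicate 2 over replicate 1, normalized counts + 1) for the 23 members with a mean of at least 50, ordered by the ratio within KO, with dashed lines at 2-fold. Of the KO bars, 5 pass the right line and 5 the left line.

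A wider list of 82 neuronal genes held 73 that were listed and 72 that were tested. Under the KO label, 10 of these 72 were higher and 9 lower at an unadjusted p under 0.05 (limma), where 4.54% and 9.18% of all tested genes were. The higher ones included Ina and Stmn4, which passed the filter only through the libraries labelled KO, so their place in this count says little. None passed the adjusted limma test, as 0% of all genes did. Of the 52 to which DESeq2 gave an adjusted p, it called 3 higher and 5 lower, against 1.69% and 4.8% of all genes given one. Over the 72 tested genes, the median limma log2 fold change was 0.12. In both KO libraries, 21 of the 72 were higher and 19 lower than in both WT libraries, where 22.5% and 25.4% of all tested genes were. The summed level of the 73 genes was 429.5 and 424 FPKM in WT, 493 FPKM in KO replicate 1 and 278 FPKM in KO replicate 2, lowest in the last library. Neurod4, Neurod6, Nhlh1, Nhlh2, Isl1, Slc17a6, Slc32a1 and Sst, among them vesicular transporters for glutamate and GABA, were among the genes without a row in the table used here.

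Among the fate and differentiation factors of that list, Pou3f2, Dlx2 and Insm1 were the most abundant, and Insm1 and Dlx2 were among those with the lowest p. Insm1, a zinc finger factor of neurogenic progenitors, measured 38.4 and 18.4 normalized counts in WT against 91.0 and 73.0 in the libraries labelled KO (log2 fold change 1.58, SE 0.61). Dlx2, a factor of interneuron precursors, measured 65.1 and 65.3 in WT against 104 and 123 in KO. Both were higher in both libraries labelled KO, and neither passed DESeq2.

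Among the genes of cytoskeleton and excitability, Thy1, Stmn1 and Dpysl3 were the most abundant, and Ina, Kif5a and Stmn4 had the lowest p. Kif5a, a kinesin of axonal transport, measured 714 and 832 normalized counts in WT against 274 and 103 in the libraries labelled KO (log2 fold change -2.19, SE 0.54; DESeq2 adjusted p = 0.0190). Ina, a neuronal intermediate filament protein, was at 0 in WT and at 8.56 and 9.91 in KO, and Stmn4 measured 1.07 and 0.920 in WT against 5.35 and 11.7 in KO. Both low genes were over the floor in both KO libraries and under it in both WT libraries. Only the libraries labelled KO brought them through the filter of a mean of at least 1, so their low limma p says little. DESeq2 gave neither an adjusted p, and its unadjusted p was 0.0199 for Ina and 0.106 for Stmn4.

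Among the genes of synapse and transmitter, Scg3, Nlgn2 and Nrxn2 were the most abundant, and those with the lowest p pointed both ways. The summed level of the 34 listed genes was 245 and 251 FPKM in WT, 177 FPKM in KO replicate 1 and 96.6 FPKM in KO replicate 2. Syngr1, a synaptic vesicle protein, measured 2284 and 2062 normalized counts in WT against 835 and 532 in KO (log2 fold change -1.70, SE 0.34; DESeq2 adjusted p = 0.0111). Syt5, a synaptotagmin, measured 194 and 427 in WT against 55.7 and 25.2 in KO (-2.91, SE 0.64; DESeq2 adjusted p = 0.000949). Pclo, the active zone scaffold piccolo, measured 58.7 and 48.7 in WT against 228 and 217 in the libraries labelled KO (2.04, SE 0.42; DESeq2 adjusted p = 0.00382). None of these 3 overlapped between the labels, and none passed the adjusted limma test.

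Of the 10 genes of the Rest repressor complex, limma put 1 higher and 1 lower at an unadjusted p under 0.05, beside 4.54% and 9.18% of all tested genes. Rcor2, a corepressor of the CoREST family, measured 133 and 153 normalized counts in WT against 22.5 and 21.6 in the libraries labelled KO (log2 fold change -2.64, SE 0.50; DESeq2 adjusted p = 0.000527). Hdac2, a histone deacetylase, was higher by a log2 fold change of 0.76 (SE 0.29; DESeq2 adjusted p = 0.397). The median of the 10 was 0.08, and Ctdsp1, Hdac1 and Ehmt2 were the most abundant, while Rcor2, Hdac2 and Rcor1 had the lowest p.

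Markers of other cells differed between labels and libraries, and their part in the neuronal results was not tested. For each list, the counts below stand beside 4.54% of all tested genes higher and 9.18% lower at an unadjusted limma p under 0.05. Of 15 neural progenitor genes, Sox3, Nes and Hes1 were higher and Sox9 lower under the KO label at an unadjusted p under 0.05 (median log2 fold change 0.27), with Vim, Fabp7 and Sox2 the most abundant and the lowest p in Sox3, Nes and Sox9. Of 10 cell cycle genes, 9 were higher at that threshold, with a median of 2.84 and summed levels of 22.4 and 47.8 FPKM in WT against 74.4 and 124 FPKM in KO. Pcna, Mcm2 and Top2a were the most abundant of these, and Ccna2, Cdk1 and Bub1 had the lowest p. Of 12 astrocyte markers, 3 were lower and none higher (median -0.73), with Gfap, Glul and Slc1a3 the most abundant and the lowest p in Slc1a2, Ndrg2 and Sox9.

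Microglia markers were lower in 11 of 14 (median -3.38), with sums of 73.8 and 117 FPKM in WT against 26.2 and 13.0 FPKM in the libraries labelled KO, with C1qa and C1qb among the most abundant and the lowest p in Trem2, C1qb and Aif1. P2ry12, which defines microglia of the brain, measured 6.40 and 4.60 normalized counts in WT, 0 in KO replicate 1 and 0.901 in KO replicate 2. Of the 12 oligodendrocyte lineage markers, 1 was lower, Cspg4, followed in p by Olig2 and Cnp, and the sums, led by Olig1, Cnp and Olig2, were 217 and 324 FPKM in WT against 431 and 244 FPKM in KO, while Sox10, Mog and Mag, which define the lineage and its myelin, stayed between 0 and 10.1 normalized counts. Meningeal, mural and endothelial markers summed to 78.9 and 271 FPKM in WT against 592 and 1413 FPKM in KO, with 2 of 11 higher and 3 lower. The median log2 fold change of these markers was -0.53, below 0 although the sums were higher in KO. Acta2, Pdgfrb and Col1a2 were the most abundant of these, and Acta2, Cspg4 and Dcn had the lowest p. Acta2, smooth muscle actin, measured 1980 and 8903 normalized counts in WT against 22252 and 50185 in KO, while Cldn5, which defines endothelial cells of the brain, was not a row of the table. Ependymal markers, led by Foxj1, Rsph1 and Pifo, summed to 138 and 203 FPKM in WT, 155 FPKM in KO replicate 1 and 31.7 FPKM in KO replicate 2, with 2 of 8 lower and the lowest p in Dnah5, Dnah11 and Pifo.

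**Figure D5:**
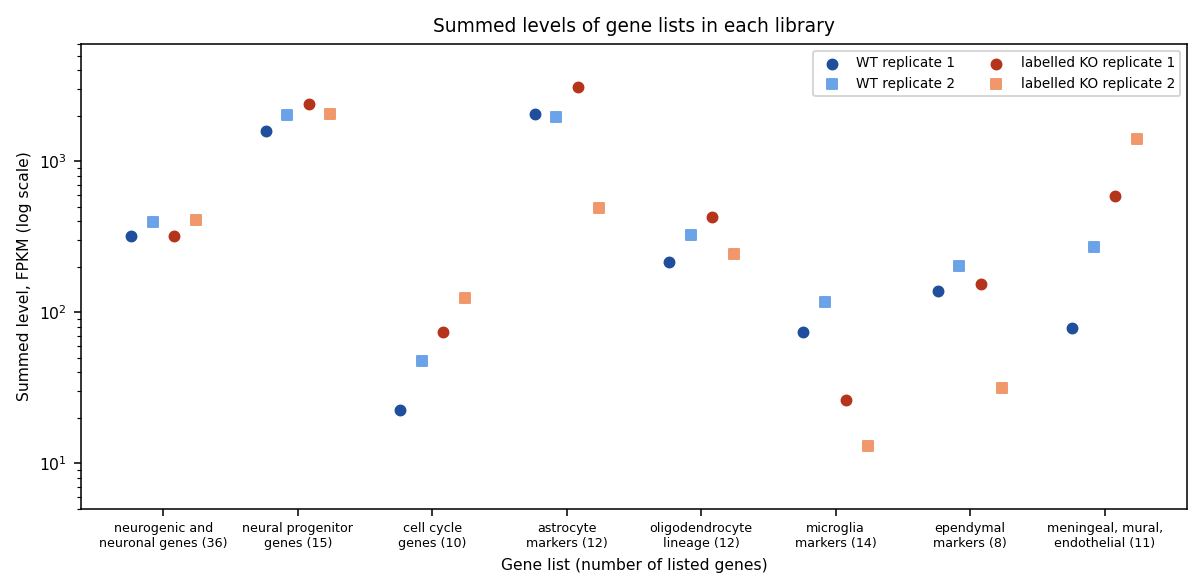
Summed level of each gene list in the 4 libraries, in FPKM on a log axis, with the number of listed genes in brackets. The 36 neurogenic and neuronal genes, of whose sum Uchl1 makes up 45.8% to 55.5%, stay between 318 and 409 FPKM. The wider neuronal list is not drawn. The astrocyte, microglia and ependymal sums are lowest in KO replicate 2. The cell cycle and the meningeal, mural and endothelial sums are highest there. Acta2 is the most abundant gene of the meningeal, mural and endothelial list, whose median log2 fold change was -0.53.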

How the data were processed

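The deposited table gives a signal per gene and library, namely read counts that the authors divided by 1 size factor per library. Although the table is named FPKM, every deposited value was a whole multiple (within 0.1 read) of the library's smallest step, and 100% of values gave whole reads, with 18749610 to 22673555 reads on genes per library. The authors aligned filtered paired-end Illumina reads to mm10. The counting program, annotation release and strand setting are not given in the sources used here. FPKM, first assumed to be the unit, were computed here from the recovered reads and the deposited gene length.

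Libraries were grouped by genotype label. Differences were fitted over all genes with limma 3.58.1 (R 4.3.3, variance trend) on log2(normalized count + 1), leaving out genes that averaged under 1, with Benjamini-Hochberg adjustment. The recovered reads were also tested with edgeR 4.0.16 (quasi-likelihood test, TMM) and DESeq2 1.42.0. The fits were tested on simulated data. Other settings were a pseudocount of 0.1, no filter or a mean of at least 5, quantile normalization, equal sums, no variance trend, a replicate block, and leaving out each library. Members and lists were chosen with earlier results of these data known. By rule, the 3 most abundant genes and the 3 with the lowest p of each other list are named, except a few that are not reported here. Rest, Hes1, Cldn5, P2ry12, Sox10, Mog and Mag were picked after their values were seen. Of the members, 12 overlap no other gene annotated in GENCODE M21, 19 overlap one on the opposite strand and 15 one on the same strand, so some reads may be shared.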

Additional observations from a re-analysis of the deposited data

How the results depend on the processing

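The 4 members at an unadjusted p under 0.05 became 7 with DESeq2 (where 10.9% of all genes passed) and between 0 and 14 when 1 library was left out (1 without WT replicate 1, 0 without WT replicate 2, 14 without KO replicate 1 and 3 without KO replicate 2), and the count at an adjusted p, 0 in limma, was 3 with DESeq2 and 0 in every other setting tried. The members' median log2 fold change of 0.27 ran from 0.13 to 0.43 under the other settings and from -0.06 to 0.55 with a library left out. The summed level was 1117, 1344, 1053 and 1414 as TPM in WT replicates 1 and 2 and KO replicates 1 and 2, and 164, 203, 174 and 182 FPKM without Uchl1. A floor of 10 reads left 26 members in all libraries against 27.

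The replicate numbers could not be taken as pairs: the deviations of same-numbered libraries correlated at -0.08 over 22094 genes. With the number as a replicate block, 5 members had an unadjusted p under 0.05, as 11.7% of all tested genes did, 0 an adjusted one, and the median was 0.27.

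The log2 fold change changed sign for Neurog2 with DESeq2 (-0.16), for Rab3a with equal sums (-0.0051) and for Cplx1 (0.21) and Nrxn3 (0.16) with quantile normalization. With a library left out it crossed 0 for 13 members: Neurog2 (-0.93 to 1.47), Sox4 (-0.13 to 0.48), Map2 (-0.44 to 0.42), Stmn2 (-0.043 to 1.11), Gap43 (-2.11 to 0.39), Elavl4 (-0.73 to 2.88), Syn1 (-0.13 to 0.96), Vamp2 (-0.81 to 0.38), Rab3a (-0.45 to 0.54), Cplx1 (-0.58 to 0.33), Nrxn3 (-1.02 to 0.50), Homer1 (-0.12 to 2.21) and Uchl1 (-0.11 to 0.38). Tubb3 (1.37 to 2.22), Dcx (1.73 to 2.77), Elavl2 (1.90 to 4.43) and Gad1 (-2.78 to -1.77) kept their sign. The cause was not tested.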
